A study of Mus musculus with 29 samples.

Results

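Amino acid transporters of 7 gene families were described on 29 single-colour Agilent arrays of cultured mouse cells. Members were chosen by name alone: every gene whose symbol begins with Slc1a, Slc3a, Slc6a, Slc7a, Slc36a, Slc38a or Slc43a followed by a number. The reference table lists 67 such symbols, and 63 of them had a named probe, out of 20956 genes with a named probe in all. Of these 63 members, 19 belong to Slc6a, 16 to Slc7a, 11 to Slc38a, 7 to Slc1a, 5 to Slc36a, 3 to Slc43a and 2 to Slc3a. Slc36a3os, Slc6a16, Slc6a19os and Slc6a5 had no named probe and were not analysed here. The name rule also admits Slc7a6os and Slc36a1os, which lie on the opposite strand beside a carrier and are not carriers, and several Slc6a members whose main cargo is a neurotransmitter, taurine or creatine.

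The study compared routes from mouse stem cells to endoderm. ESC are embryonic stem cells kept in 2i with LIF, and Diff are the same line after 7 to 8 days in Activin, CHIRON and LIF. Mid and Late are nEnd cultures, passaged from Diff in nEnd medium, at passage 7 to 10 and at passage 14 to 15, and below nEnd means their average with equal weight. XEN are extraembryonic endoderm cells of a separate line in standard XEN medium. ESC, Diff, Mid and Late come from 1 double reporter line, HRHnG. EpiSC, a stable culture of epiblast stem cells made from ESC, and ADE, the same cells after 4 days of differentiation towards anterior definitive endoderm, carry the spelling HRHNG, which was taken to be that line. Stem cells of other lines (HVMC, E14, E14-NanogGFP) make up 2iL, kept in 2i with LIF, and NACL, kept in N2B27 to which Activin, CHIRON and LIF were added, both for 3 or more passages. EpiSC against 2iL and nEnd against XEN therefore differ in cell line as well as in cell type, which cannot be told apart here. The culture medium also differs in nEnd against XEN and in Diff and nEnd against ESC, and cannot be told apart from cell type there. The media of EpiSC and ADE are not given here, so a part of the medium in their comparisons cannot be told apart either. All lines are labelled male. ADE and NACL have 4 arrays each and every other group 3. The nEnd replicates came from separate experiments, per the design text; for the other groups nothing states what separates the replicates, so p-values measure only the spread between these samples.

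Solute carriers move amino acids across the plasma membrane and the membranes of lysosomes. Heteromeric exchangers pair a light chain of the Slc7 family with a heavy chain of the Slc3 family, which carries the light chain to the surface; the cationic carriers of the Slc7 family work without a heavy chain. Slc1 members take up glutamate or exchange small neutral amino acids, Slc38 members take up glutamine and other neutral amino acids with sodium, Slc36 members move small amino acids with protons, and Slc43 members release or take up large neutral amino acids without sodium. In stem cells and early embryos this traffic feeds protein synthesis and is read by the mTORC1 kinase and by Atf4, a transcription factor induced by amino acid shortage. Yolk sac endoderm is an absorptive epithelium that passes nutrients to the embryo.

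Values below are log2 signals after background correction, with each array's 75th percentile subtracted, so 0 is the level of that percentile. Values of different genes come from different probes and are not set against each other. Differences are on the log2 scale with their standard error after the sign ±, and a gene counts as called when its p-value, adjusted by Benjamini-Hochberg, is under 0.05 in 1 limma fit across all 16333 genes tested. A gene entered the test where its probe cleared background (Agilent's flag for well above it) on each array of 1 group or more. That held for 47 members: 13 of Slc6a, 11 of Slc38a, 10 of Slc7a, 6 of Slc1a, 3 of Slc36a, 3 of Slc43a and 1 of Slc3a. The 16 that were not tested are Slc1a2, Slc36a1os, Slc36a2, Slc3a1, Slc6a2, Slc6a11, Slc6a14, Slc6a18, Slc6a20b, Slc6a21, Slc7a2, Slc7a10, Slc7a12, Slc7a13, Slc7a14 and Slc7a15. The 75th percentile lay between 137.4 and 323.3 intensity units, and 50.07% to 80.05% of probes were well above background. ESC, Diff, Mid, Late and XEN form a first array set, read on 2 scan days, and the other groups a second set with other slides, another day and another software version. Levels are therefore compared within a set only.

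Markers of the labelled cell types were checked on the same arrays. On the summed log2 scale 9 primitive endoderm markers ran from -40.9 to -36.46 in ESC and from 45.53 to 50.93 in Diff, and all 9 were well above background on every array of Diff, Mid, Late and XEN. Diff also kept pluripotency transcripts. The 9 naive pluripotency markers summed to between 44.73 and 45.89 in ESC, 14.72 and 34.07 in Diff, and -6.25 and 8.21 in Mid. All 9 were well above background on every Diff array, although 6 were called lower in Diff than in ESC. The Diff arrays thus differed widely in these markers, whose part in the results below was not tested. ADE arrays had all 7 definitive endoderm markers higher than EpiSC, and also 7 of 9 primitive endoderm and all 8 visceral endoderm markers. A list of 4 fibroblast or feeder markers (Col1a1, Col1a2, Thy1 and Postn) summed to between 3.37 and 3.88 in EpiSC, against -11.06 to -10.16 in 2iL and -12.75 to -5.63 in ADE, and all 4 were well above background on each EpiSC array. That list moves with both comparisons that involve EpiSC below, and 2 of its genes, Col1a1 and Thy1, were also called lower in nEnd than in ESC (median of the list -1.43); its part in these results was not tested. In bulk RNA fewer cells of a type and less RNA per cell cannot be told apart.

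Promoter sequence was read for the members from 250 bases before to 50 bases after the RefSeq transcription start (RefSeq, GRCm38.p6); 45 of the 63 members had an entry. Both strands were searched for 3 short motifs. TGATGNAAT, the element bound by C/EBP and ATF factors including Atf4, occurred in 0.965% of all 32851 promoters and, among the family genes, in Slc6a21 alone. TGACNNNGC, the core of the antioxidant response element, was present in 12.4% of all promoters and in 12 of 70 promoters of family genes (17.1%), which belong to the 45 members and to the 4 family symbols without a probe. AGATAA, a motif of GATA factors, which are central to extraembryonic endoderm, was present in 11.2% of all promoters and in 5 of those 70 (7.14%). The stretches below show such matches in several members whose levels are described most fully, with the motif, on either strand, in capitals.
Slc7a7, chr14:54417867-54417912, minus strand: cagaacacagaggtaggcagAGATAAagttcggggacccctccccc
Slc7a9, chr7:35448867-35448912, plus strand: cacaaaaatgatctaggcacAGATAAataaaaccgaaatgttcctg
Slc7a9, chr7:35448906-35448951, plus strand: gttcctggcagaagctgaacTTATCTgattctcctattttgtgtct
Slc7a6, chr8:106168833-106168881, plus strand: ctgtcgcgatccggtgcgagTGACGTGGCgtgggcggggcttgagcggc
Slc38a2, chr15:96699729-96699775, minus strand: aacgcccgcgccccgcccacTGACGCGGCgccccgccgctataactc
Slc43a1, chr2:84840287-84840322, plus strand: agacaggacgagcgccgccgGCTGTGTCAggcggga
In tested members the GATA motif lay wholly upstream of the start in Slc7a7 and Slc7a9; in Slc38a4 it lay at the start itself. A match is a description of these letters, not a binding site.

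In Diff against ESC, 11 of 47 tested members were called higher and 12 lower, while 23.5% and 18.9% of all genes tested were. From Diff to Mid, 6 members were called higher and 12 lower, against 12.3% and 16.8% of all genes; without Diff 3 the 18 calls became 11. From Mid to Late, 3 were called higher and 2 lower (3.78% and 3.07% of all genes). nEnd against ESC had 14 higher and 17 lower members, against 28% and 25.3% of all genes. nEnd against XEN had 6 higher and 13 lower, with 16.6% and 24.5% of all genes. Both nEnd comparisons counted the 6 Mid and Late arrays as separate, although their numbers were taken to pair them. With Mid and Late averaged by number, 29 members in place of 31 were called against ESC, and 16 in place of 19 against XEN. In the second set, NACL against 2iL had 4 higher and 3 lower (4.12% and 4.13% of all genes), EpiSC against 2iL 14 higher and 9 lower (21.5% and 20.1%), and ADE against EpiSC 7 higher and 16 lower (16.9% and 20.7%). As a share of the 47 members, the lower calls came to 34% in ADE against EpiSC and 36.2% in nEnd against ESC, and the higher calls to 29.8% in EpiSC against 2iL. The median absolute difference over the members was 0.91 in ADE against EpiSC, where it was 0.51 over all genes, and 1.09 in nEnd against ESC, where it was 0.68. The signed medians lay close to those of all genes in ADE minus EpiSC (-0.12 against -0.05) and in nEnd minus ESC (-0.09 against -0.05). In Diff minus ESC the median was -0.3 over the members and -0.04 over all genes. Members were called in both directions in each comparison. Comparisons that share a group share its arrays, so their calls are given side by side and not compared.

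The split into higher and lower calls depends on how the arrays are centred. Centring on the array median in place of the 75th percentile moved the median difference of all genes by 0.36 in Diff minus ESC, 0.28 in nEnd minus ESC, -0.35 in nEnd minus XEN, -0.16 in Late minus Mid, 0.12 in EpiSC minus 2iL and 0.39 in the difference of both differentiations. In Diff against ESC the members then split into 11 higher and 6 lower, and the higher share of all called genes went from 55.4% to 74.1%. In nEnd against ESC they split into 16 and 10 (52.6% to 66.3%), and in nEnd against XEN into 5 and 17 (40.4% to 24%). In Late against Mid the higher share of all called genes went from 55.2% to 23.4% (38.8% with quantile normalization and 42.9% in the series matrix), and in the difference of both differentiations from 59.5% to 73.6%, with 18 members higher and 8 lower. Each called difference of a member named here by rule kept its sign under every alternative run.

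Sizes depend on the background step. Correction with normexp, which adds 50 intensity units to every signal, shrank 51 of 114 called differences of named members by over 1.5 times, and the series matrix gave 47 of 108 smaller by that much. Where normexp did so, its log2 difference follows the adjusted p below, as "with normexp". The at-least folds below are bounds under the main background step only.

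**Figure D1:**
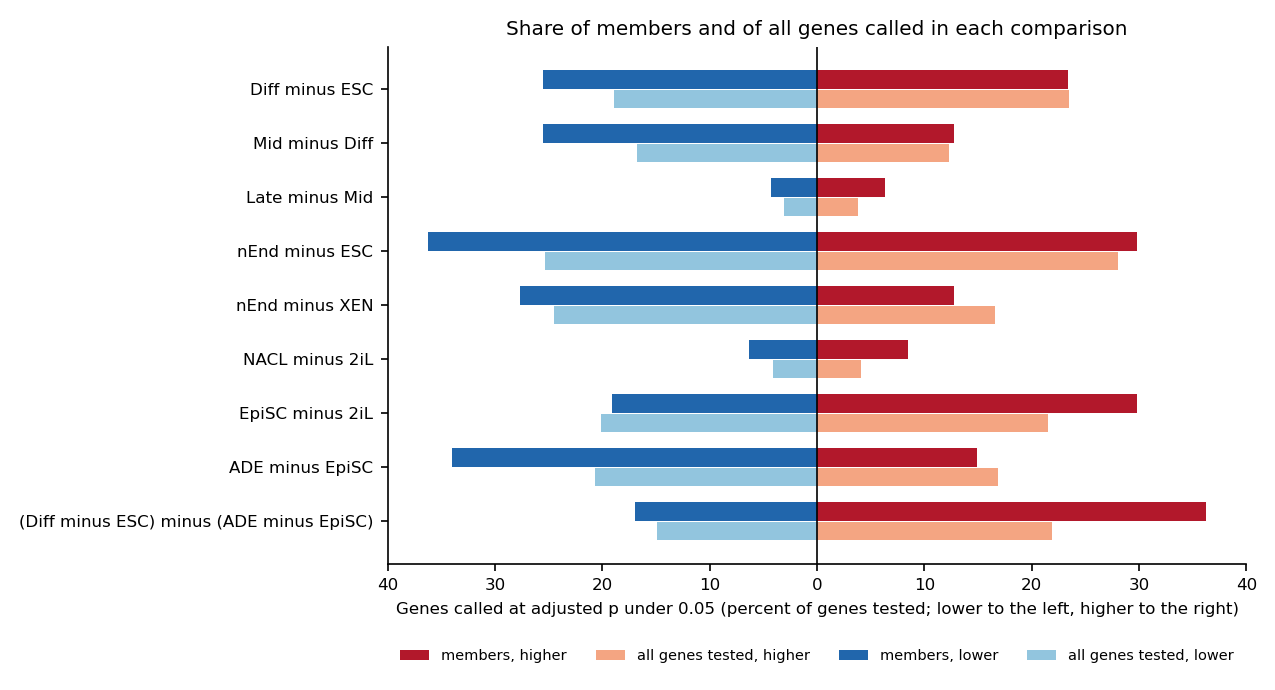
Percent of the 47 tested members (dark bars) and of all 16333 genes tested (light bars) called higher (right, red) or lower (left, blue) at adjusted p under 0.05, for each of the 9 comparisons. The member bars reach 36.2% for lower calls in nEnd minus ESC, where the bar of all genes ends at 25.3%, and 34% in ADE minus EpiSC, where it ends at 20.7%.

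**Figure D2:**
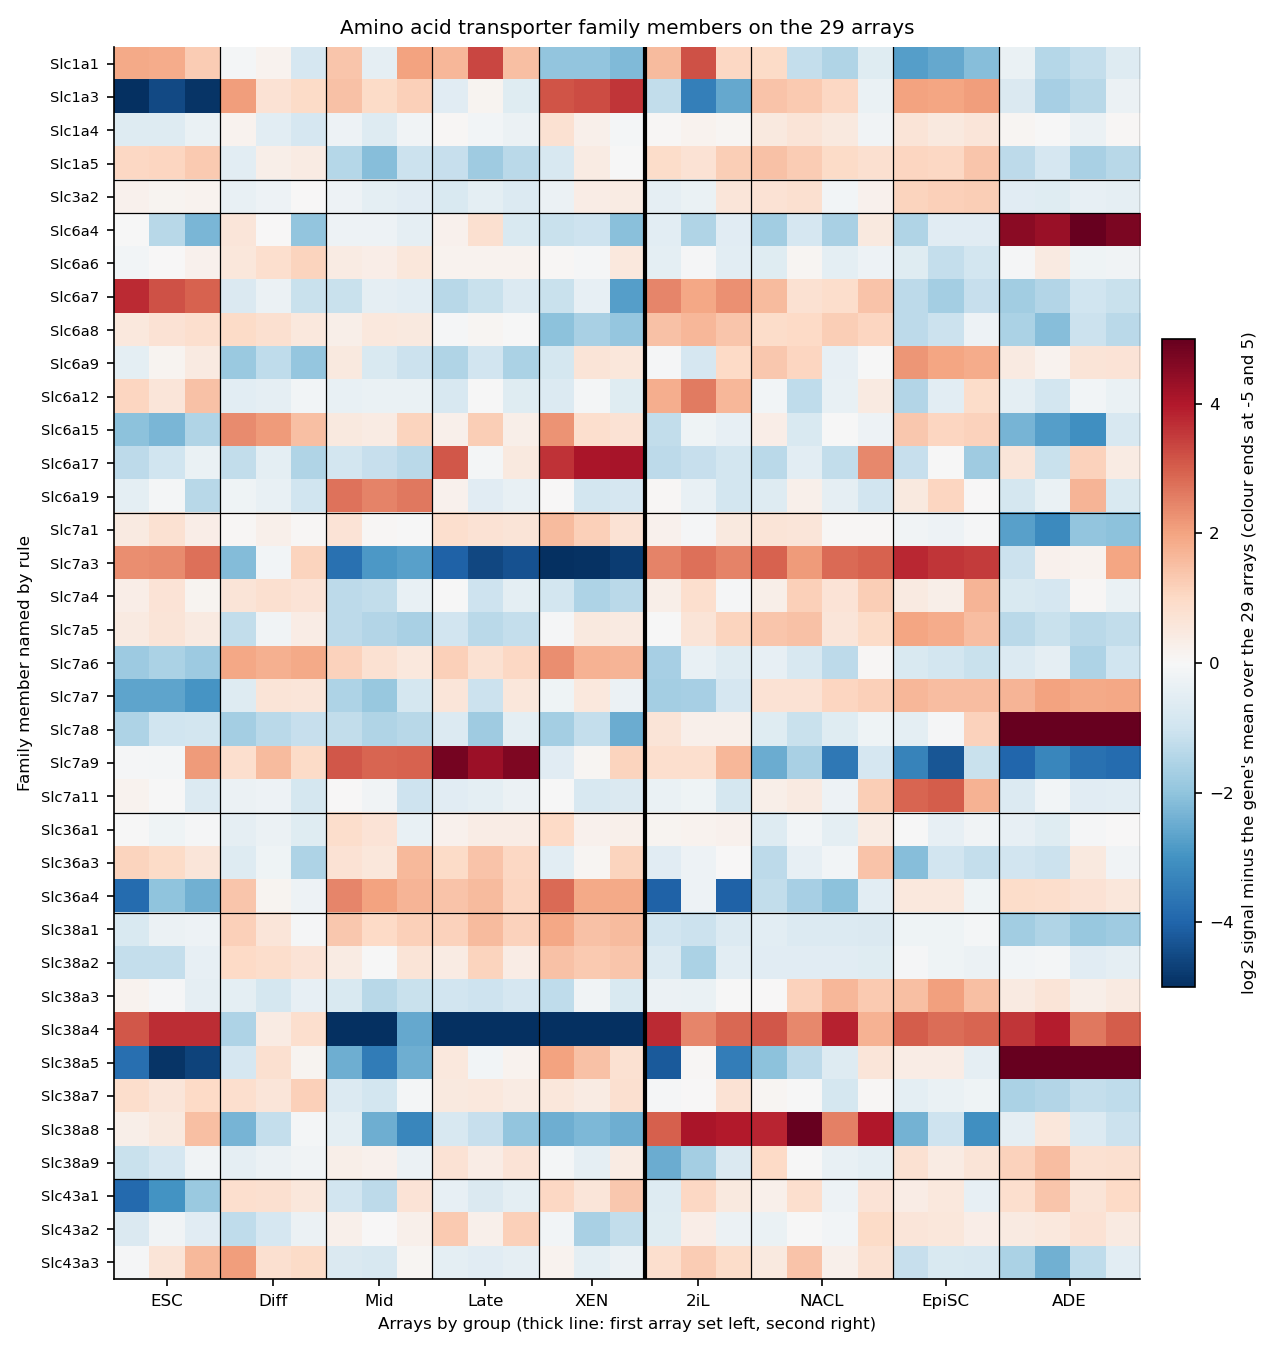
Signal of the 37 members named by rule (rows, by family) on the 29 arrays (columns, by group), as log2 signal minus the gene's mean over all arrays; red is higher and blue lower, and the thick line divides both array sets. Slc38a4 and Slc7a3 are dark blue in Mid, Late and XEN, and Slc7a8, Slc38a5 and Slc6a4 are dark red on all 4 ADE arrays.

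Among the heavy chains, Slc3a2 (4F2hc, partner of most light chains) was detected on all arrays. Its values were 6.07, 5.99 and 6.03 in ESC, 5.46, 5.58 and 5.86 in Diff, 5.59, 5.37 and 5.29 in Mid, and 5.07, 5.36 and 5.17 in Late. Every Mid and Late array lay under every ESC array, and nEnd minus ESC was -0.72 ± 0.21 (adjusted p = 0.0059), a call lost when arrays were centred on their median (-0.44, adjusted p = 0.24). In the second set Slc3a2 read 6.96, 7.04 and 7.06 in EpiSC and 5.27, 5.26, 5.42 and 5.39 in ADE. The groups did not overlap, and the gene fell by 1.68 ± 0.23 from EpiSC to ADE (adjusted p = 3.8e-06) and was higher in EpiSC than in 2iL by 1.24 ± 0.25 (adjusted p = 0.00027). Slc3a1 (rBAT), the heavy chain of the cystine and dibasic exchanger Slc7a9, was well above background on 1 of 3 Late arrays, 2 of 4 ADE arrays and no array of any other group, and was not tested.

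Slc7a5 (LAT1), the light chain that imports large neutral amino acids such as leucine, was lower at the end of both routes out of pluripotency. It read 2.38, 2.55 and 2.35 in ESC, 0.68, 1.73 and 2.27 in Diff, 0.61, 0.43 and 0.29 in Mid and 0.97, 0.58 and 0.71 in Late. All Mid and Late values were below all ESC values, and nEnd minus ESC was -1.83 ± 0.26 (adjusted p = 3e-06). Diff minus ESC was -0.87 ± 0.31 (adjusted p = 0.024), a call lost without ESC 2, without Diff 1 and under median centring. XEN, at 1.86, 2.4 and 2.37, also lay above nEnd, which differed from it by -1.61 ± 0.26 (adjusted p = 3.3e-05). EpiSC arrays gave 3.88, 3.77 and 3.44 and ADE arrays 0.58, 0.78, 0.57 and 0.69, a fall by 3.04 ± 0.29 (adjusted p = 2.1e-08). A second probe of Slc7a5 was also called lower in nEnd against ESC (-1.22 ± 0.23, adjusted p = 7.8e-05) and in ADE against EpiSC (-1.22 ± 0.25, adjusted p = 0.00035), but not in nEnd against XEN (-0.25 ± 0.23, adjusted p = 0.42) or in Mid against Diff (0.03 ± 0.26, adjusted p = 0.95). Slc7a5 was higher in EpiSC than in 2iL by 1.21 ± 0.31 (adjusted p = 0.0027), where the second probe gave 0.64 ± 0.26 (adjusted p = 0.056).

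Slc7a8 (LAT2), the related neutral exchanger of absorptive epithelia, rose only in ADE among the comparisons made. EpiSC read -3.26, -2.8 and -1.61 and ADE 2.61, 2.54, 2.21 and 2.38. No array of either group came near the other, and the rise was 4.99 ± 0.34 (adjusted p = 2.2e-10). In the first set its values ran from -5.23 in a XEN array to -3.24 in a Late array, and Diff minus ESC was -0.25 (95% interval -1.01 to 0.5, adjusted p = 0.6).

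Slc7a6 and Slc7a7 are the y+LAT light chains, which exchange cationic amino acids for neutral ones, Slc7a7 being the form of absorptive epithelia. Slc7a6 read -1.33, -1.09 and -1.36 in ESC and 2.41, 2.25 and 2.35 in Diff. It rose by 3.59 ± 0.32 (adjusted p = 6.3e-09) and remained above ESC in nEnd, where Mid gave 1.62, 1.24 and 1.01 and Late 1.65, 1.24 and 1.52. XEN arrays, at 2.8, 2.22 and 2.16, were all higher than nEnd, which differed by -1.01 ± 0.28 (adjusted p = 0.0056), a call lost without XEN 1. Between EpiSC and ADE the difference of Slc7a6 was 0 ± 0.3 (95% interval -0.62 to 0.63, adjusted p = 0.99). The neighbour on the opposite strand, Slc7a6os, was called lower in Diff than in ESC (-0.74 ± 0.21, adjusted p = 0.0057).

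Slc7a7 read 1.77, 1.77 and 1.45 in ESC and 3.76, 5.03 and 4.98 in Diff. All Diff arrays were above all ESC arrays, with a rise of 2.93 ± 0.38 (adjusted p = 1.3e-06). It then fell by 1.64 ± 0.38 in Mid (2.86, 2.5 and 3.5, adjusted p = 0.0022) and was higher in Late (5.01, 3.33 and 4.96) by 1.48 ± 0.38 (adjusted p = 0.021), although Mid and Late overlapped. Under median centring, and without Mid 1, Mid 2, Late 1 or Late 3, the call in Late was lost. In the second set it was lowest in 2iL, at 2.7, 2.72 and 3.54. NACL arrays gave 5.11, 5.12, 5.46 and 5.57, higher by 2.33 ± 0.35 (adjusted p = 0.00016), and EpiSC arrays 6.07, 5.94 and 5.93, higher than 2iL by 2.99 ± 0.38 (adjusted p = 9.9e-07). ADE arrays, between 6.1 and 6.41, differed from EpiSC by 0.3 (95% interval -0.43 to 1.03, adjusted p = 0.57).

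Slc7a9 (b0,+AT), the light chain of the cystine and dibasic exchanger of kidney and gut, gave its highest values in nEnd. ESC read -3.1, -3.13 and -0.9, Diff -2.21, -1.45 and -2.09, Mid 0.08, -0.12 and -0.09, and Late 1.74, 1.25 and 1.63. All 6 nEnd arrays were above all ESC, Diff and XEN arrays. nEnd exceeded ESC by 3.12 ± 0.59 (adjusted p = 8.6e-05, 1.87 with normexp) and XEN (-3.62, -2.94 and -1.93) by 3.58 ± 0.59 (adjusted p = 3.3e-05, 2.08 with normexp). The Mid minus Diff step, 1.87 ± 0.68, was near the threshold (adjusted p = 0.041, 1.14 with normexp) and was lost when any 1 Diff or Mid array was left out. In the second set Slc7a9 was well above background on every 2iL array (-2.2, -2.21 and -1.38), on 1 of 4 NACL arrays (-5.5, -4.66, -6.61 and -3.87), 1 of 3 EpiSC arrays and no ADE array. NACL minus 2iL was -3.23 ± 0.63 (adjusted p = 0.0021, -0.62 with normexp) and EpiSC minus 2iL -4.02 ± 0.68 (adjusted p = 4.2e-05, -0.94 with normexp), both uncertain in size because the lower side was mostly at background.

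Slc7a11 (xCT), which exchanges cystine for glutamate and supplies glutathione synthesis, was well above background in EpiSC alone, at -3.47, -3.36 and -4.65. It was at least 2.73-fold higher there than in 2iL (adjusted p = 5.1e-07) and at least 2.22-fold lower in ADE than in EpiSC (adjusted p = 3e-07). Both calls were lost with normexp background correction (differences of 0.28 and -0.17). EpiSC was also the group in which all 4 fibroblast or feeder markers were well above background on every array. Slc7a10, a light chain for small neutral amino acids, was not well above background on any array.

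**Figure D3:**
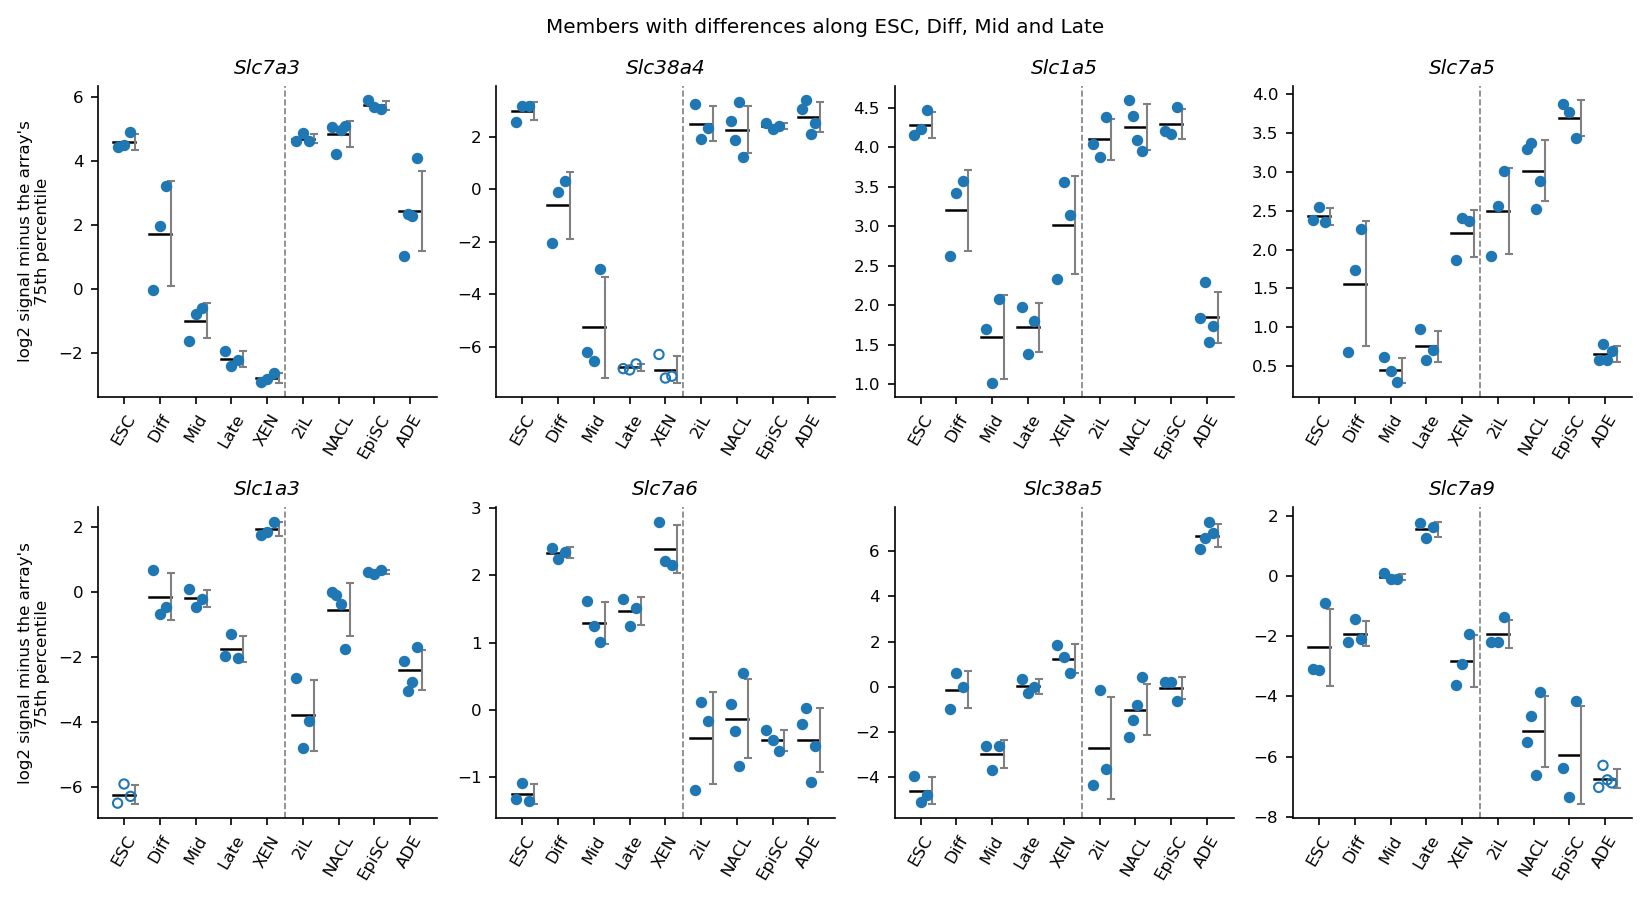
Signal of 8 members (panels) on each array (points) by group: log2 signal minus the 75th percentile of the array, with the group mean (black line) and SD (grey bar). Open points mark groups in which no array was well above background, and the dashed line divides both array sets. Slc7a3, Slc38a4, Slc1a5 and Slc7a5 are lower in all 6 Mid and Late arrays than in all ESC arrays, and Slc1a3, Slc7a6, Slc38a5 and Slc7a9 are higher.

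The cationic carriers of arginine and lysine differed in their patterns. Slc7a3 (CAT3) read 4.43, 4.49 and 4.89 in ESC, -0.03, 1.97 and 3.22 in Diff, -1.61, -0.77 and -0.59 in Mid, -1.93, -2.42 and -2.22 in Late and -2.91, -2.81 and -2.62 in XEN. Each Diff array was below each ESC array and above each Mid array, and the Diff arrays were far apart from each other. It fell by 2.88 ± 0.59 from ESC to Diff (adjusted p = 0.00036) and by 2.71 ± 0.59 from Diff to Mid (adjusted p = 0.0014), and nEnd minus ESC was -6.19 ± 0.51 (adjusted p = 5.5e-10). nEnd minus XEN was 1.19 ± 0.51 and was not called (adjusted p = 0.067). EpiSC gave 5.9, 5.69 and 5.61 and ADE 1.04, 2.35, 2.28 and 4.09, so that ADE spread widely but stayed below EpiSC on every array; the difference was -3.3 ± 0.55 (adjusted p = 4.8e-05).

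Slc7a1 (CAT1), the widely used arginine carrier, stayed within 4.62 and 5.47 on all ESC, Diff, Mid and Late arrays, and nEnd minus ESC was -0.03 (95% interval -0.53 to 0.46, adjusted p = 0.92). EpiSC read 4.46, 4.39 and 4.57 and ADE 1.93, 1.44, 2.65 and 2.57, a fall by 2.32 ± 0.26 (adjusted p = 2.1e-07). Slc7a2 (CAT2) was well above background on at most 2 arrays of any group and was not tested. Slc7a4, whose cargo is not settled, was lower in Mid than in Diff by a difference of -1.68 ± 0.36 (adjusted p = 0.0013, -0.77 with normexp; -0.7 and not called as the mean over its probes) and lower in ADE than in EpiSC, with -1.26 ± 0.34 (adjusted p = 0.0048).

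**Figure D4:**
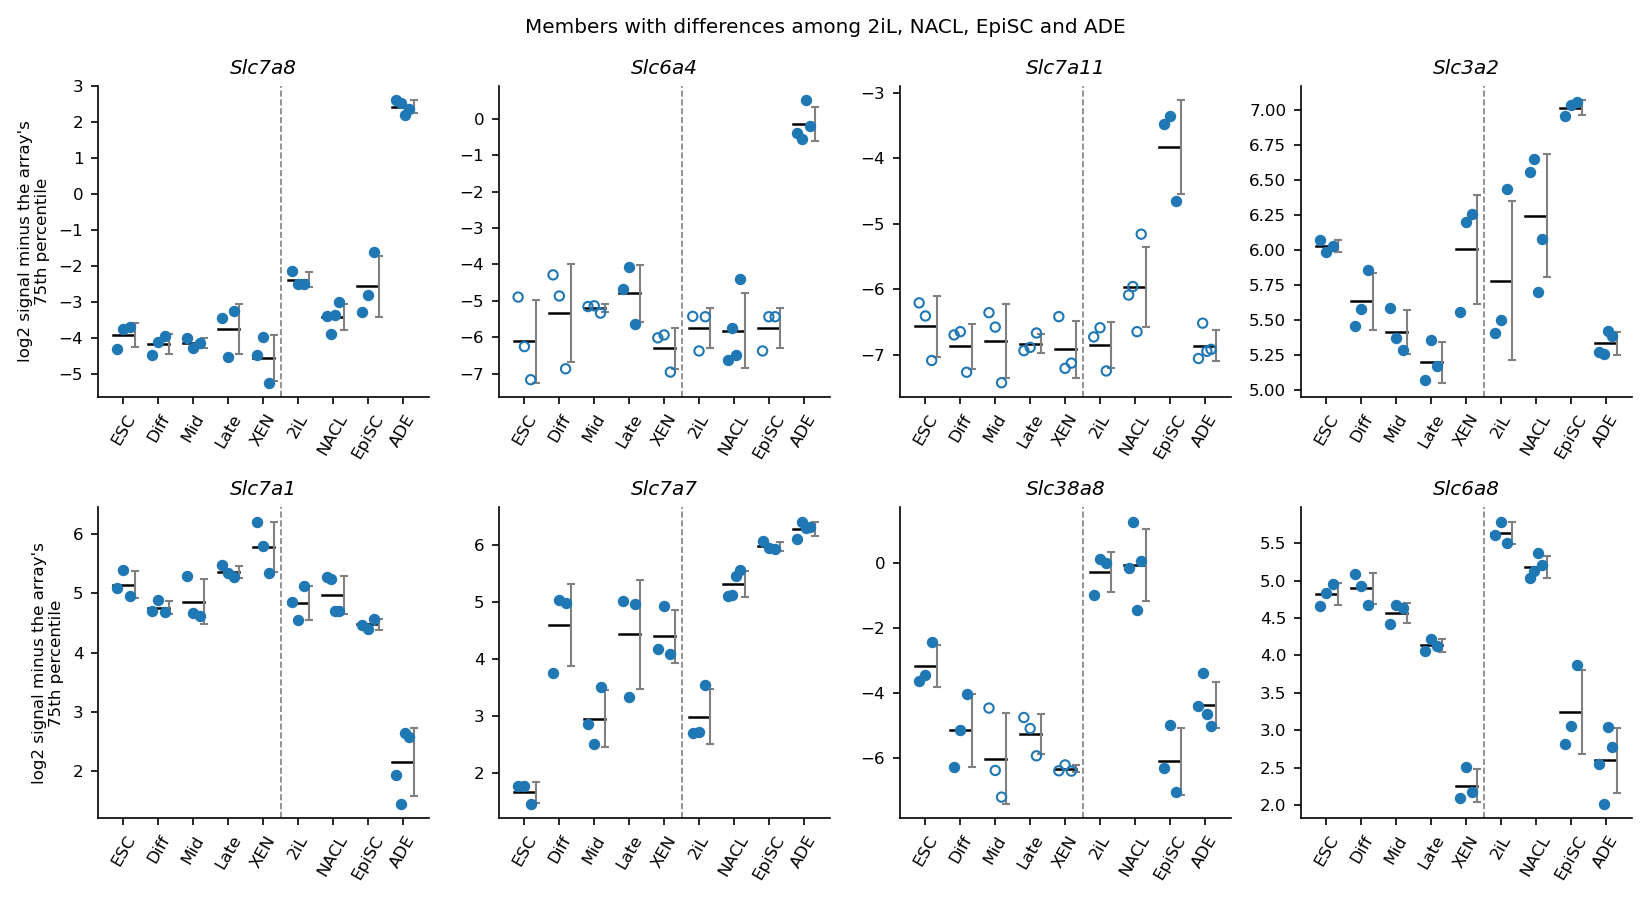
Signal of 8 further members (panels) on each array (points) by group, drawn as in the plot of Slc7a3 and Slc38a4, with group mean (black line) and SD (grey bar). Slc7a8 and Slc6a4 are high in ADE on all 4 arrays, Slc7a1 and Slc3a2 are lower there than in EpiSC, and Slc7a11 has filled points in EpiSC only.

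Of the Slc1 family, the glutamate carrier Slc1a3 (GLAST) was higher in Diff and nEnd than in ESC. Its ESC values of -6.49, -5.9 and -6.28 were not well above background on any array. Diff read 0.69, -0.65 and -0.45, at least 29.1-fold higher (adjusted p = 5.9e-10, 1.9 with normexp), and nEnd was at least 16.4-fold higher than ESC (adjusted p = 2e-10, 1.39 with normexp). Mid gave 0.09, -0.44 and -0.21, Late -1.95, -1.27 and -2.01 and XEN 1.77, 1.87 and 2.18. Late was below Mid on every array, with -1.56 ± 0.47 (adjusted p = 0.048), a call lost without Mid 1, Mid 2, Mid 3, Late 1 or Late 3. All XEN arrays exceeded all nEnd arrays, with nEnd minus XEN at -2.91 ± 0.41 (adjusted p = 4.7e-06). In the second set Slc1a3 was higher in NACL (0.02, -0.08, -0.35 and -1.74) than in 2iL (-2.63, -4.79 and -3.95, 2 of 3 well above background) by 3.25 ± 0.44 (adjusted p = 4.8e-05, 1.45 with normexp). EpiSC gave 0.63, 0.58 and 0.69, higher than 2iL by 4.43 ± 0.47 (adjusted p = 8.2e-08, 2.37 with normexp). ADE gave -2.11, -3.03, -2.77 and -1.69 and fell by 3.04 ± 0.44 from EpiSC (adjusted p = 8.5e-06, -1.93 with normexp).

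Slc1a1 (EAAT3), a glutamate and cysteine carrier, read -1.19, -1.23 and -1.8 in ESC and -3.18, -2.91 and -3.92 in Diff, a fall by 1.93 ± 0.63 (adjusted p = 0.016). It was not well above background in XEN, and nEnd was at least 9.04-fold higher (adjusted p = 1.1e-05, 1.04 with normexp), with Mid at -1.69, -3.52 and -1.07 and Late at -1.4, 0.25 and -1.56. In EpiSC it was at least 14.9-fold lower than in 2iL (adjusted p = 4.8e-06, -1.36 with normexp), where it read -1.48, 0.11 and -2.04. NACL minus 2iL was -2.52 ± 0.59 (adjusted p = 0.0075, -0.83 with normexp), a call lost without 2iL 2 and with normexp.

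Slc1a5 (ASCT2), the exchanger through which glutamine and other small neutral amino acids enter, read 4.16, 4.23 and 4.47 in ESC, 2.62, 3.42 and 3.57 in Diff, 1.7, 1.02 and 2.08 in Mid and 1.98, 1.38 and 1.8 in Late. The values of ESC, Diff and nEnd did not overlap; the gene fell by 1.08 ± 0.31 to Diff (adjusted p = 0.006; not called without Diff 1 or under median centring), by a further 1.6 ± 0.31 to Mid (adjusted p = 0.00039), and nEnd minus ESC was -2.63 ± 0.26 (adjusted p = 1.3e-08). XEN, at 2.34, 3.56 and 3.14, was above every nEnd array, with nEnd minus XEN at -1.35 ± 0.26 (adjusted p = 0.00024). EpiSC read 4.21, 4.17 and 4.51 and ADE 1.84, 2.29, 1.53 and 1.74, a fall by 2.45 ± 0.29 (adjusted p = 4.7e-07). Slc1a4 (ASCT1), its relative for serine and alanine, moved little: Diff minus ESC was 0.13 (95% interval -0.37 to 0.63), nEnd minus ESC 0.29 (-0.14 to 0.72) and ADE minus EpiSC -0.62 ± 0.23 (adjusted p = 0.034), a call lost without any 1 EpiSC array, ADE 2 or ADE 3. The 2 other tested members of the family, Slc1a6 and Slc1a7, were called in 4 comparisons and in none, with the difference of both differentiations left aside.

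Among the sodium-coupled Slc38 carriers, Slc38a4 (SNAT4), an imprinted carrier of neutral and cationic amino acids, fell from ESC to nEnd. It read 2.58, 3.17 and 3.17 in ESC, -2.05, -0.09 and 0.32 in Diff, -6.18, -6.54 and -3.05 in Mid and -6.83, -6.88 and -6.65 in Late. Only 1 of the 6 nEnd arrays and no XEN array was well above background, so the sizes of the later steps are less certain. It fell by 3.58 ± 0.68 from ESC to Diff (adjusted p = 0.00017) and by 4.65 ± 0.68 from Diff to Mid (adjusted p = 2.4e-05, -1.7 with normexp), and nEnd minus ESC was -9 ± 0.59 (adjusted p = 1.4e-11, -4.68 with normexp). In the second set its values ran from 1.25 to 3.4 on all 14 arrays and it was called in no comparison.

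Slc38a5 (SNAT5), which moves glutamine, serine and glycine in either direction, rose in ADE. EpiSC gave 0.21, 0.21 and -0.63 and ADE 6.08, 6.57, 7.31 and 6.82, higher by 6.77 ± 0.71 (adjusted p = 9.2e-08). In the first set it read -3.94, -5.08 and -4.79 in ESC, -0.99, 0.63 and -0.03 in Diff, -2.6, -3.68 and -2.61 in Mid and 0.36, -0.29 and 0 in Late. It thus rose in Diff by 4.48 ± 0.76 (adjusted p = 4e-05, 1.84 with normexp), fell by 2.84 ± 0.76 in Mid (adjusted p = 0.0066, -1.54 with normexp) and was higher in Late than in Mid by 2.99 ± 0.76 (adjusted p = 0.019, 1.65 with normexp), with no overlap at any step. Without Mid 2, Late 1 or Late 3 the call in Late was lost. XEN (1.85, 1.31 and 0.59) was above all nEnd arrays, with nEnd minus XEN at -2.72 ± 0.65 (adjusted p = 0.0018, -1.81 with normexp).

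Slc38a1 (SNAT1) and Slc38a2 (SNAT2), the broad glutamine and alanine importers, were detected on all arrays. Slc38a1 read 4.31, 4.77 and 4.81 in ESC, 6.41, 6.08 and 6.24 in Mid and 6.22, 6.66 and 6.21 in Late, and nEnd exceeded ESC by 1.67 ± 0.19 (adjusted p = 1.3e-07). Slc38a2 read 3.4, 3.39 and 4.15 in ESC and 5.58, 5.47 and 5.25 in Diff, a rise of 1.79 ± 0.25 (adjusted p = 4.5e-06); nEnd exceeded ESC by 1.42 ± 0.22 (adjusted p = 7.5e-06). Both genes were thus higher in all nEnd arrays than in all ESC arrays. In ADE Slc38a1 fell by 1.54 ± 0.21 from EpiSC (adjusted p = 3.9e-06), with 3.34, 3.56, 3.16 and 3.3 against 4.85, 4.84 and 4.95, whereas Slc38a2 differed by -0.12 (95% interval -0.61 to 0.37, adjusted p = 0.75).

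Slc38a6, a little-studied carrier, read -0.92, -0.78 and -0.53 in ESC and 1.63, 1.84 and 1.39 in Diff, higher by 2.36 ± 0.25 (adjusted p = 6.8e-08). Slc38a7 (SNAT7), the lysosomal glutamine exporter, was called lower in Mid than in Diff (-1.45 ± 0.25, adjusted p = 0.00015) and higher in Late than in Mid (1.04 ± 0.25, adjusted p = 0.015). The call in Late was lost with normexp, under median centring and without Mid 1, Mid 2, Late 1 or Late 3. Slc38a8, a glutamine carrier known from the retina, read -0.98, 0.14 and 0.01 in 2iL and -6.31, -4.97 and -7.03 in EpiSC, where 1 of 3 arrays was well above background; the difference was -5.82 ± 0.7 (adjusted p = 4.2e-07, -1.91 with normexp). Slc38a9, the lysosomal arginine sensor upstream of mTORC1, was higher in NACL than in 2iL by 1.66 ± 0.35 (adjusted p = 0.0036, 0.92 with normexp) and in EpiSC than in 2iL by 2.23 ± 0.38 (adjusted p = 4e-05, 1.36 with normexp). In NACL minus 2iL neither of 2 other probes of Slc38a9 was called (0.89 ± 0.57, adjusted p = 0.42, and 1.26 ± 0.42, adjusted p = 0.066). Slc38a3 was higher in EpiSC than in 2iL by 1.89 ± 0.31 (adjusted p = 2.8e-05) and in NACL than in 2iL by 1.25 ± 0.29 (adjusted p = 0.0069, 0.53 with normexp; not called with normexp), and fell by 1.22 ± 0.29 from EpiSC to ADE (adjusted p = 0.0017).

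The Slc6 family holds sodium- and chloride-coupled carriers. Slc6a15, a carrier of branched-chain amino acids and proline, read -3.85, -4.07 and -3.29 in ESC and 0.57, 0.32 and -0.28 in Diff, a rise of 3.94 ± 0.47 (adjusted p = 4.6e-07, 1.92 with normexp), while nEnd exceeded ESC by 2.57 ± 0.41 (adjusted p = 1.1e-05, 0.95 with normexp). It fell by 3.42 ± 0.44 from EpiSC (-0.44, -0.72 and -0.66) to ADE (-4.11, -4.54, -4.87 and -2.6; adjusted p = 1.9e-06, -1.29 with normexp). Slc6a7, the brain proline carrier, was lower in Diff than in ESC and lower in EpiSC than in 2iL. It read 0.62, 0.08 and -0.17 in ESC and -3.81, -3.39 and -4.22 in Diff, a fall by 3.98 ± 0.4 (adjusted p = 3.7e-08, -1.93 with normexp), and -0.67, -1.17 and -0.83 in 2iL against -4.42, -4.81 and -4.24 in EpiSC, a difference of -3.6 ± 0.4 (adjusted p = 1.6e-07, -1.43 with normexp).

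Slc6a9 (GLYT1), a glycine carrier, was lower in Diff (0.22, 0.8 and 0.13) than in ESC (1.57, 2.19 and 2.51) by a difference of -1.71 ± 0.49 (adjusted p = 0.0067). It was highest within the second set in EpiSC, at 4.26, 4.05 and 3.9, and fell by 1.52 ± 0.46 to ADE (adjusted p = 0.011). Slc6a19 (B0AT1), the neutral amino acid carrier of gut and kidney, was well above background on all 3 Mid arrays (-3.57, -3.79 and -3.63) and no array of ESC, Diff, Late or XEN. It was at least 1.86-fold higher in Mid than in Diff (adjusted p = 5.9e-05) and at least 2.14-fold lower in Late than in Mid (adjusted p = 0.0014), and both calls were lost with normexp background correction (differences of 0.38 and -0.27).

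Several Slc6 members carry other cargo. Slc6a4, the serotonin transporter, was well above background on all 4 ADE arrays (-0.38, -0.56, 0.51 and -0.2) and no EpiSC array, at least 28.2-fold higher (adjusted p = 1e-07, 1.99 with normexp). Slc6a8, the creatine transporter, read 2.09, 2.51 and 2.18 in XEN, and nEnd exceeded it by 2.09 ± 0.2 (adjusted p = 2.2e-08); EpiSC minus 2iL was -2.39 ± 0.24 (adjusted p = 2.5e-08). Slc6a17, a vesicular carrier of neutral amino acids, was well above background on all 3 XEN arrays (-1.8, -1.35 and -1.31) and on 1 of 6 nEnd arrays, with nEnd minus XEN at -3.92 ± 0.68 (adjusted p = 6.7e-05, -1.05 with normexp), a size that is uncertain because most nEnd arrays were at background. Slc6a12, which carries betaine and GABA, was lower in NACL than in 2iL (-2.37 ± 0.41, adjusted p = 0.00062, -0.34 with normexp; not called with normexp) and in EpiSC than in 2iL (-2.39 ± 0.44, adjusted p = 0.00011, -0.59 with normexp). Slc6a6, the taurine transporter, was higher in Diff than in ESC by 0.8 ± 0.22 (adjusted p = 0.0047) and in ADE than in EpiSC by 0.91 ± 0.21 (adjusted p = 0.0011). Slc6a14, a broad carrier of neutral and cationic amino acids, was well above background on 1 of 29 arrays, in ADE.

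Over all members, 18 other probes of 14 genes were available, 11 of them well above background in at least 1 group. In 43 member comparisons where the main probe was called and such a probe existed, the other probe was called the same way in 28, was not called in 15 and was never called the opposite way.

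Of the Slc36 family, Slc36a4, a high-affinity proline and tryptophan carrier, read -6.39, -4.53 and -4.94 in ESC (1 of 3 well above background), -1.13, -2.38 and -2.8 in Diff, and between -1.46 and -0.09 in nEnd. nEnd exceeded ESC by 4.46 ± 0.6 (adjusted p = 1e-06, 1.36 with normexp), and a second probe gave 2.38 ± 0.55 (adjusted p = 0.00083). In Diff against ESC, 3.18 ± 0.69 (adjusted p = 6e-04, 0.62 with normexp), and in EpiSC against 2iL, 3.05 ± 0.69 (adjusted p = 0.00096, 0.59 with normexp), that second probe was not called (1.2 ± 0.64, adjusted p = 0.14, and 1.08 ± 0.64, adjusted p = 0.19). Slc36a1 (PAT1), the lysosomal proton-coupled exporter of small amino acids, was called in 1 comparison, Mid against Diff (0.83 ± 0.28, adjusted p = 0.027), where the groups overlapped and the call was lost without Diff 1, Diff 3, Mid 1 or Mid 2. Slc36a3 was at least 2.25-fold lower in Diff than in ESC (adjusted p = 0.015) and at least 2.37-fold higher in Mid than in Diff (adjusted p = 0.018, 0.29 with normexp; not called with normexp or without Diff 3 or Mid 3); a second probe was called in neither.

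In the Slc43 family, Slc43a1 (LAT3), a sodium-independent carrier of leucine and other large neutral amino acids, read -3.9, -2.99 and -1.88 in ESC and 0.83, 0.78 and 0.56 in Diff, a rise of 3.65 ± 0.48 (adjusted p = 1.9e-06, 1.99 with normexp). nEnd exceeded ESC by 2.38 ± 0.42 (adjusted p = 3.9e-05, 1.08 with normexp). Slc43a2 (LAT4), its relative, was higher in nEnd than in XEN by 1.53 ± 0.31 (adjusted p = 0.00035) and than in ESC by 1.02 ± 0.31 (adjusted p = 0.0073). Slc43a3, now known as a purine carrier, fell by 1.76 ± 0.43 from Diff to Mid (adjusted p = 0.0033, -0.9 with normexp). Neither Slc43a1 nor Slc43a2 was called in ADE against EpiSC (0.8 ± 0.45, adjusted p = 0.18, and 0.03 ± 0.33, adjusted p = 0.96).

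For Late against Mid, replicate numbers were taken to pair the cultures. With the number as a block in the model of all groups, 4 members were called in place of 5. With the number as a block on the Mid and Late arrays alone, a fit chosen after seeing the data, 0 members were called by limma, 12 had an unadjusted p under 0.05, and the smallest adjusted p of a member was 0.061. Leaving out Mid 2, Late 1 or Late 3 left 1 called member, and leaving out Mid 1 left 2.

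For NACL against 2iL, cultures of the same cell line were compared with the line as a block. Slc1a3 (3.04 ± 0.43, adjusted p = 0.047), Slc7a7 (2.4 ± 0.2, adjusted p = 0.023) and Slc7a9 (-3.22 ± 0.43, adjusted p = 0.04) kept their calls. Slc1a1 (-2.58 ± 0.8, adjusted p = 0.21), Slc6a12 (-2.28 ± 0.44, adjusted p = 0.083), Slc38a9 (1.66 ± 0.58, adjusted p = 0.26) and Slc38a3 (1.35 ± 0.36, adjusted p = 0.16) did not. Primitive endoderm markers summed to between -29.26 and -3.44 over the NACL arrays and between -35.55 and -25.21 in 2iL, and 4 of 9 were called higher in NACL; their part in these results was not tested.

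Both differentiations were set against each other as a difference of differences, (Diff minus ESC) minus (ADE minus EpiSC), which shares no array between its sides. Of 47 members, 17 were called higher and 8 lower, against 21.9% and 14.9% of all genes; the members' median was 0.41 and that of all genes 0.06. Slc1a3, higher in Diff and lower in ADE, gave 9.12 ± 0.65 (adjusted p = 5.7e-10, 3.83 with normexp); no ESC array was well above background, so its size is uncertain. Slc6a15 did the same, with 7.36 ± 0.65 (adjusted p = 1.1e-08, 3.21 with normexp). Slc7a8 (-5.25 ± 0.5, adjusted p = 3.1e-08) and Slc6a4 (-4.82 ± 0.86, adjusted p = 0.00012, -1.98 with normexp; no EpiSC array well above background) rose in ADE and were not called in Diff, while Slc6a7 (-4.03 ± 0.55, adjusted p = 4.7e-06, -2.14 with normexp) and Slc38a4 (-3.94 ± 0.94, adjusted p = 0.0019) fell in Diff and were not called in ADE. Slc6a7 was already low in EpiSC (-4.42, -4.81 and -4.24), which limits how far it could fall to ADE. Slc7a5, called lower on both routes, gave 2.17 ± 0.42 (adjusted p = 0.00026), but its second probe gave 0.03 ± 0.36 (adjusted p = 0.96). Slc7a3, which fell on both, differed by 0.41 (95% interval -1.26 to 2.09, adjusted p = 0.73). The 2 routes also lie in different array sets, start from different cells and end at different days, which cannot be told apart here. A part of the culture medium, which is not given here for EpiSC and ADE, cannot be told apart either.

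**Figure D5:**
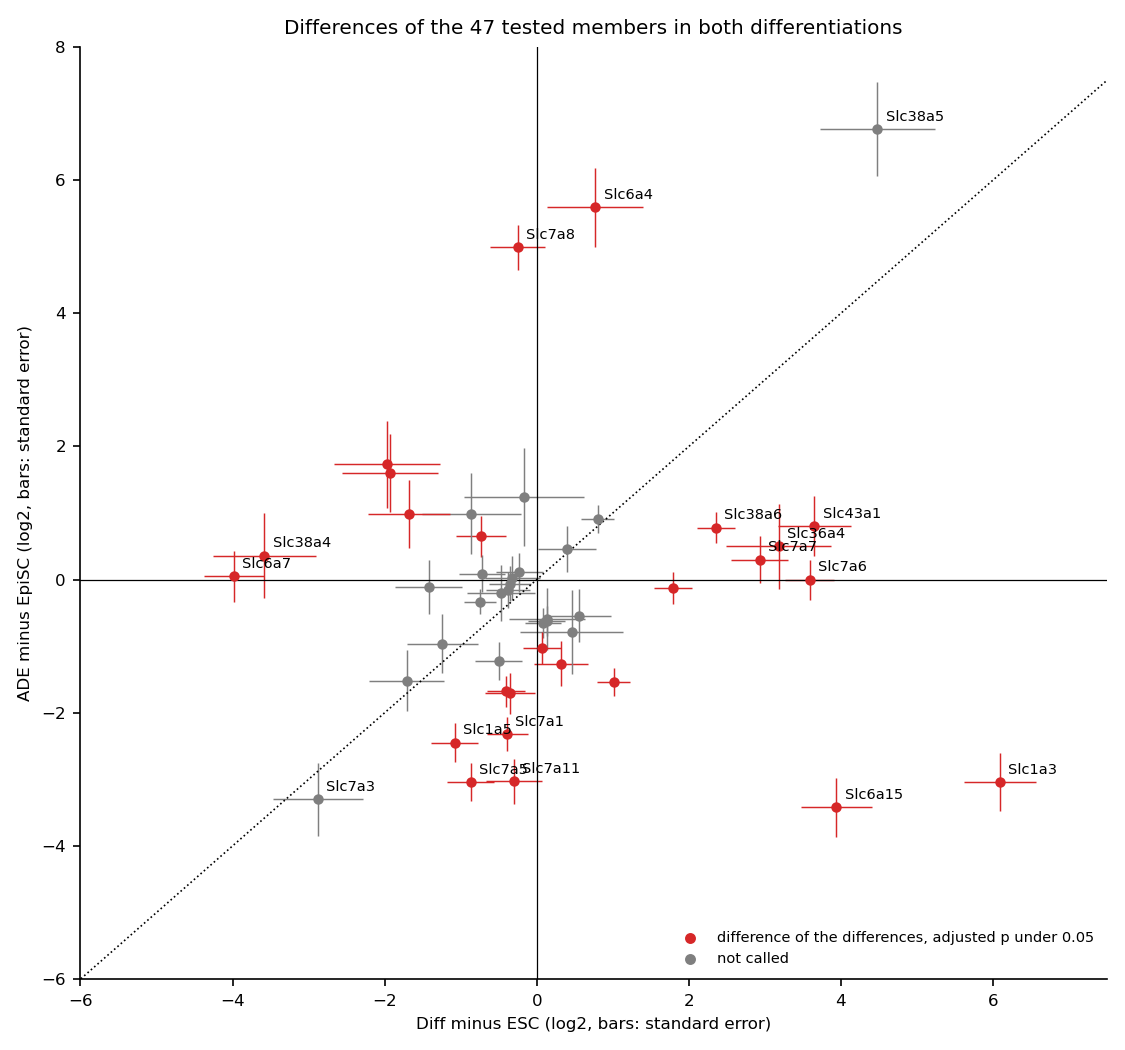
Log2 difference of each of the 47 tested members in Diff minus ESC (horizontal) and in ADE minus EpiSC (vertical), with standard errors as bars; red points were called in the difference of the differences and the dotted line marks equal values. Slc1a3 (6.09 and -3.04) and Slc6a15 (3.94 and -3.42) lie at the lower right, and Slc38a5 (4.48 and 6.77) at the upper right.

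Genes that use, sense or answer to amino acid supply were counted from fixed lists. Of 22 tested genes of the list of Atf4 and its non-transporter targets, 20 were called lower in ADE than in EpiSC and the other 2 were not called, with a median of -2.51 beside -0.05 over all genes, of which 20.7% were lower. In Diff against ESC 14 were lower and 2 higher (median -1.52), where 18.9% and 23.5% of all genes were, and in EpiSC against 2iL 12 were higher and 1 lower (median 0.9), where 21.5% and 20.1% were. Atf4 itself fell by 1.82 ± 0.2 in ADE (adjusted p = 2.8e-07) and by 1.03 ± 0.22 in Diff (adjusted p = 0.00053), and Asns, which makes asparagine, fell by 1.91 ± 0.2 (adjusted p = 7.6e-08) and 1.78 ± 0.21 (adjusted p = 3.5e-07). Of 20 cytosolic aminoacyl-tRNA synthetases, 13 were lower and 1 higher in ADE than in EpiSC (median -0.78), against 20.7% and 16.9% of all genes. In nEnd against ESC 14 were lower and 1 higher (median -0.55), against 25.3% and 28% of all genes, whose median was -0.05 in both comparisons. Lars, which charges leucine, fell by 1.55 ± 0.15 in ADE (adjusted p = 4.1e-08). In the same 2 comparisons the members Slc3a2, Slc7a5 and Slc1a5 were called lower, Slc3a2 in nEnd not under median centring. Other members went the other way: 14 were called higher and 17 lower in nEnd than in ESC, among the higher ones Slc38a1 (1.67) and Slc38a2 (1.42). In ADE against EpiSC 7 were higher and 16 lower. A link between members and these lists was not tested. The fibroblast or feeder list moved with both comparisons, 3 of 4 being lower in ADE than in EpiSC and 2 of 4 in nEnd than in ESC.

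Of 30 genes of amino acid sensing to mTORC1, 13 were higher and 5 lower in nEnd than in ESC (median 0.34), against 28% and 25.3% of all genes. In ADE against EpiSC 4 were higher and 8 lower (median -0.08), against 16.9% and 20.7%. Of 20 tested enzymes of glutamine, serine, glycine, threonine and arginine metabolism, 12 were lower in Mid than in Diff and the other 8 were not called (median -0.71), while 16.8% of all genes were lower and their median was -0.06. From Mid to Late 5 of them were called higher and 0 lower (median 0.48), against 3.78% and 3.07% of all genes. In nEnd against ESC 4 were higher and 6 lower (median -0.05), against 28% and 25.3%. Glul, which makes glutamine from glutamate, rose in Diff by 3.39 ± 0.29 (adjusted p = 2.8e-09) and stood above ESC in nEnd by 4.1 ± 0.25 (adjusted p = 4.3e-12). Tdh, the threonine dehydrogenase of mouse embryonic stem cells, was lower in EpiSC than in 2iL, with -10.52 ± 0.58 (adjusted p = 2.7e-12). Of 19 tested genes among other amino acid and peptide carriers, 5 were higher and 6 lower in nEnd than in ESC (median -0.02), and 5 were higher and 2 lower in ADE than in EpiSC (median 0.26), against 28% and 25.3%, and 16.9% and 20.7%, of all genes. Cltrn, the partner that brings Slc6a19 to the surface in kidney, was well above background on all 4 ADE arrays and 1 of 3 EpiSC arrays, with a difference of 6.47 ± 0.81 (adjusted p = 1.3e-06). Slc6a19 itself read -7.16, -6.59, -4.59 and -7.04 in ADE. Cltrn was also called higher in Diff than in ESC and lower in Mid than in Diff. In Mid, where Slc6a19 was well above background on all 3 arrays, Cltrn was so on 1. A link between both genes was not tested.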

How the data were processed

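Total RNA was labelled with Cy3 on 29 arrays; per the file headers, the deposited intensity of each spot was read with Agilent Feature Extraction 11.0.1.1 (first array set) or 12.0.1.1 (second), and the software had background-corrected the signal used here; the submitters' processing notes name version 9.1. The headers name build mm9, so the reference annotation (GRCm38.p6) served for gene names and promoters only. The authors also deposited a series matrix, read as log2 values on an unstated scale, with column medians of 5.94 to 5.949; its scaling, background step and log base stay unknown, and it was used as an alternative only. Irregular spots, 132 to 243 of 59305 per array, were left out, and spots of a probe were averaged. Of 55681 probes, 27636 received a symbol; the brightest probe stood for a gene. The log2 intensity was reduced by each array's 75th percentile. One limma model (limma 3.58.1, R 4.3.3) of 9 group means was fitted to all arrays. The mean signal was not used here, so normexp background correction took the median signal with an offset of 50. For an at-least fold, an array on the dim side counted at its dimmest signal that cleared background, or at the probe's own signal where that was brighter. The scripts were tested on simulated data.

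Named members were, in each comparison, up to the 10 largest called differences whose groups did not overlap (6 for the difference of differences), and 23 carriers named throughout; other members with values were chosen after their values were seen. Deviations of same-numbered Mid and Late arrays correlated at 0.218, 0.129 and 0.141 across genes. Each Late array correlated best with the Mid array of its number, so the labels' numbers were taken to pair them. In no other comparison of single groups did every same-numbered array do so. Same-numbered arrays of Late and ESC (0.252, 0.0837 and 0.125) and of Mid and ESC (0.182, 0.0248 and 0.173) also correlated positively, but their best match was not sought. Members and lists were chosen with earlier results of these data known. Alternatives were another background correction, centring, normalization, filter, probe rule, batch, cell line and replicate blocks, the series matrix and leaving out each array. Figures used matplotlib 3.10.9. The number of arrays limits the precision. Some items are not reported here.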

Additional observations from a re-analysis of the deposited data

Results flagged for a closer look

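Slc7a3 on NACL array 2 read 4.23, and the nearest of the other 3 NACL arrays read 4.97; the gap was 0.871 of the range of the group. It was the 1 array that stood apart among 46 groups of values checked, and chance marks about 1 in 20 such groups.

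For 25 of 47 tested members the change from ESC to Diff differed from the change from EpiSC to ADE by the test of the difference itself in limma. Listed here are the 6 with the largest difference, with adjusted p-values given in the report. The difference of the differences was 9.12 for Slc1a3, 7.36 for Slc6a15, -5.25 for Slc7a8, -4.82 for Slc6a4, -4.03 for Slc6a7 and -3.94 for Slc38a4. The sizes for Slc1a3 and Slc6a4 are uncertain, since no ESC array of the first and no EpiSC array of the second was well above background; with normexp they were 3.83 and -1.98.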

How the results depend on the processing

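Of 114 called results of named members, 114 kept their sign and 76 their call under every alternative run; no value reversed. Requiring probes well above background on all arrays left 26 members tested, of which 13 were called in Diff against ESC, 2 in Late against Mid, 19 in nEnd against ESC, 2 in NACL against 2iL, 11 in EpiSC against 2iL, 14 in ADE against EpiSC and 14 in the difference of differences. In Late against Mid, 2 members were called under median centring and 3 on the compared arrays alone. In NACL against 2iL, 4 were called with normexp, 4 on the compared arrays alone and 3 with cell line as a block. Leaving out 1 array at a time gave 19 to 22 called members in Diff against ESC, 11 to 15 in Mid against Diff, 1 to 6 in Late against Mid, 28 to 31 in nEnd against ESC, 16 to 22 in nEnd against XEN, 7 to 9 in NACL against 2iL, 20 to 23 in EpiSC against 2iL, 19 to 22 in ADE against EpiSC and 23 to 26 in the difference of differences. With the replicate block in the whole model, the counts in that order were 24, 18, 4, 33, 21, 7, 23, 22 and 25. Pairing was assumed for Mid and Late only, where the block on those arrays alone left 0 called by limma and 12 at an unadjusted p under 0.05. Over all genes, Mid against Diff had 4759 calls, 2903 under median centring and 2727 on the compared arrays alone. Late against Mid had 1118, 384 under median centring, 255 on the compared arrays alone and 0 with the replicate block on those arrays; without 1 array they were 493 (Mid 1), 659 (Mid 2), 438 (Late 1) and 409 (Late 3). NACL against 2iL had 1348, 849 under median centring, 805 with probes well above background on all arrays, 450 on the compared arrays alone, 248 with cell line as a block and 819 without 2iL 1. The causes were not tested. Dim members carry the least certain sizes, since a probe near background gives only a bound.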
